A study of Mus musculus with 4 samples.

Results

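A set of 44 mouse genes that copy DNA and run the S phase of the cell cycle was followed through blood stem and progenitor cells of young and aged mice. The genes were taken by symbol from a list of genes with known functions in these steps, and all 44 were found among the 28692 genes counted in each of the 4 libraries. The list was chosen with earlier results of these data known. They fall into 6 roles: 16 act in origin licensing and the replicative helicase, 11 in DNA synthesis, 6 in nucleotide supply, 5 in fork protection and checkpoint signalling, 3 in the G1/S switch and 3 in chromatin and histone supply.

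Hematopoietic stem and progenitor cells (HSPCs), which hold the stem cells that renew the blood and their first progeny, were sorted from the bone marrow of male C57BL/6 mice as Lin-, Sca1+, cKit+, Flt3- cells, and their mRNA was counted cell by cell by 10x droplet sequencing. Young mice were 2 to 3 months old and aged mice (labelled old) were 17 to 18 months old. Each age had 2 libraries, A captured and sequenced at the HalioDX facility and B at the TGML facility, and each library came from pooled marrow of 2 mice (young A and aged B) or 3 mice (young B and aged A), so single mice cannot be told apart. By the study's methods, young B and aged A were also sequenced to more reads per cell than young A and aged B. Titles and source names gave these ages, whereas the free-text descriptions of young B and aged A named the other age, and the libraries were grouped by title. By these titles the ages did not overlap in Cd34, a gene that marks progenitors (288 and 234 CPM, UMIs per 1000000, in young A and B against 117 and 61.0 CPM in aged A and B), a value that was not used to group the libraries. The replicate here is the pool (n = 2 per age), and p-values measure the spread between pools only.

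The 4 pools held 2244 to 5189 cells after very deep and very shallow barcodes were set aside, with a median of 5674 to 6719 unique molecules (UMIs) per cell, and between 10 and 29 cell barcodes were shared by any pair of pools. Levels below are in CPM, the UMIs of a gene per 1000000 UMIs of all genes in the pool. The sort genes were present in all pools: Ly6a, which encodes Sca1, lay at 164 and 254 CPM in young A and B and at 232 and 355 CPM in aged A and B, and Kit lay between 71.7 and 164 CPM. Flt3, the gene of the excluded receptor, was lower with age, at 48.0 and 15 against 10.5 and 2.40 CPM.

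DNA replication starts at origins that are licensed in G1, when the origin recognition complex, Cdc6 and Cdt1 load the ring of Mcm2 to Mcm7 onto DNA. At the G1/S switch cyclin E and the E2F factors drive the next steps, Cdc45 and the GINS proteins turn the ring into an active helicase, and polymerases, clamp loaders, ligase and enzymes of nucleotide supply copy both strands. Most stem cells of the marrow rest outside the cycle, whereas their progeny divide often, so transcripts of these genes are commonly read as a mark of cycling cells.

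Many S-phase genes are controlled by E2F, and their start sites were therefore searched for letters that E2F binds. Promoter windows of 250 bases before to 50 bases after the RefSeq start (GRCm38.p6) were found for 34 of the 44 genes, in 39 windows. Any of 5 strings (TTTCCCGC, TTTGGCGC, TTTCGCGC, TTTGGCGG and TTCCCGCC, which can overlap one another, on both strands) was present in 19 of 39 member windows (48.7%), against 3.95% of all 32851 windows of the same length. CCAAT was present in 56.4% of member windows and 37.4% of all windows, and TTTGAA in 10.3% and 17.9%. In the annotation of the same build, Mcm5 (ENSMUSG00000005410) spans chr8:75109569-75128439 on the plus strand, Ung (ENSMUSG00000029591) chr5:114130386-114139323 on the plus strand and Chek1 (ENSMUSG00000032113) chr9:36708482-36727065 on the minus strand, so starts differ somewhat from those of RefSeq. A match is a description of the letters and not a measured binding site. A window holds the bases before the start and the first bases of the transcript. The windows of 5 of the members called in the class by age comparison below are shown as examples, with E2F letters in capitals. Of these 4 hold a match, a larger share than the 19 of 39 member windows. Ung held none in this window, and had the largest difference between mitosis-gene cells and cells high in Mcm2-7 without mitosis genes.
Mcm3, chr1:20820263-20820562, minus strand: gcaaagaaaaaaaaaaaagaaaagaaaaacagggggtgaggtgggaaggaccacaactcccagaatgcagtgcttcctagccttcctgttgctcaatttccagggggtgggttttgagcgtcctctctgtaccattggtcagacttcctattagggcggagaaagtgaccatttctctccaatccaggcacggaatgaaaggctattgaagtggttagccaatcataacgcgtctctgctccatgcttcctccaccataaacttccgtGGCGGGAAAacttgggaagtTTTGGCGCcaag
Mcm5, chr8:75109259-75109558, plus strand: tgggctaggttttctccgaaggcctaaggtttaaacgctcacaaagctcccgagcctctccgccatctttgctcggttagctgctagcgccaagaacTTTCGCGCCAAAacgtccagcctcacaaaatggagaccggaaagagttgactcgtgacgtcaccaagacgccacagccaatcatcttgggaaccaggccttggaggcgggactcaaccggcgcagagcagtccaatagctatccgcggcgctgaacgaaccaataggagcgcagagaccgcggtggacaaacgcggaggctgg
Mcm6, chr1:128359656-128359955, minus strand: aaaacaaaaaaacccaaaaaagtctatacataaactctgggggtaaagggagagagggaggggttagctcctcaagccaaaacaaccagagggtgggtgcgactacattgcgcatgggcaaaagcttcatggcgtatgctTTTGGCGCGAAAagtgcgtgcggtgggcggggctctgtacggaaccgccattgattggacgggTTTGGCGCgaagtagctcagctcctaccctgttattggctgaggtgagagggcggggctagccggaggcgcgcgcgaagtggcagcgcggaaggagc
Chek1, chr9:36726609-36726908, minus strand: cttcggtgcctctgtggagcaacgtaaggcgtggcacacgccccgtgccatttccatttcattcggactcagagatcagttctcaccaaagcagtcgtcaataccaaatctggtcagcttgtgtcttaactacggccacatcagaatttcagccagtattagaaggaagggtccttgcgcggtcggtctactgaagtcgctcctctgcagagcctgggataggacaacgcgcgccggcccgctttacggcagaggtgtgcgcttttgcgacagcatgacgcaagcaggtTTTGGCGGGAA
Ung, chr5:114130185-114130484, plus strand: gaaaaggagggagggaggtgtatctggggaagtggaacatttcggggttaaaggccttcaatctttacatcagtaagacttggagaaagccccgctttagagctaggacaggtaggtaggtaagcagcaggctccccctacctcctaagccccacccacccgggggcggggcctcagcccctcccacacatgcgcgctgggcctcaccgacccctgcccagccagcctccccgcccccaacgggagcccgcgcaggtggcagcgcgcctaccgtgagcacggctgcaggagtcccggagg

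The first question was whether these genes are expressed differently with age in HSPCs as a whole. Together they summed to 2909 and 2672 CPM in young A and B, and to 1929 and 1736 CPM in aged A and B. Both aged pools lay below both young pools, and the difference had the same size at each facility (-980 CPM in A and -936 CPM in B). The means were 2790 ± 168 (SD, n = 2) in young and 1832 ± 137 (SD, n = 2) in aged pools, a score over members for which no test was made. In summed counts, fewer cells that express a gene and less RNA of it per cell cannot be told apart, and the cell-level counts further below bear on this only in part.

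All 44 members had a log2 fold change (aged over young) below 0, where 48.5% of the 13555 genes tested did, and the median was -0.71 for the members and 0.01 for all genes. In 35 of 44 members both aged pools lay below both young pools (13.6% of all genes), in none did both lie above (18.1% of all genes), and in 9 the ages overlapped. No single member passed edgeR's quasi-likelihood test at an adjusted p of 0.05, as against 2.03% of all genes in either direction and 0.428% in the lower one, while 37 of 44 had an unadjusted p under 0.05 (16% of all genes). That count was 17 without facility in the fit, against 1103 of 13555 genes. The median of the members was -0.75, -0.65, -0.60 and -0.82 without young A, young B, aged A and aged B. DESeq2 called 7 members lower (Mcm3, Mcm5, Mcm6, Mcm7, Dscc1, Lig1 and Ung), against 2.78% of all genes in either direction, and edgeR without its filter on low counts called 10, against 4.07%. The call for single genes thus depends on the tool at n = 2, and the direction of the 44 genes did not differ between the tools except for Ccne1.

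**Figure D1:**
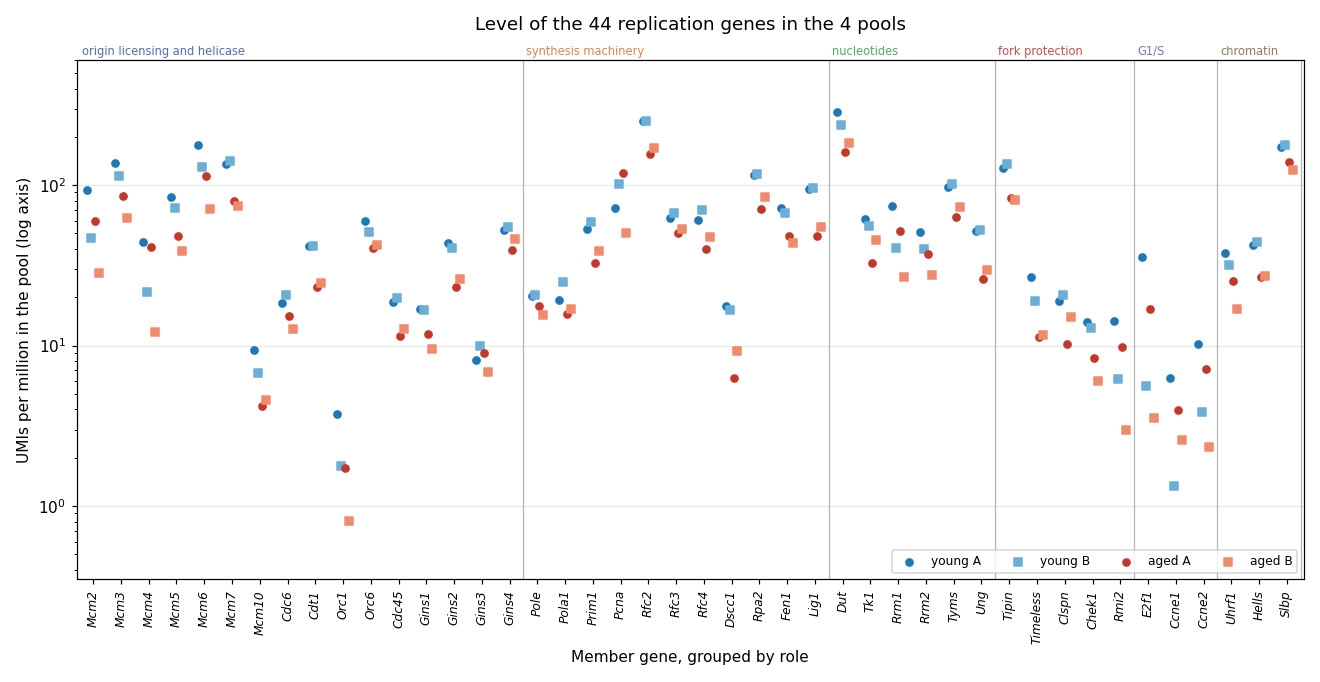
Level of each of the 44 members (x axis, ordered by role) in CPM (y axis, log scale). Each point is 1 pool, blue for young and red for aged, with circles for facility A and squares for B, and in 35 members both aged points lie below both young points.

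Among the genes of origin licensing and the helicase, the ages did not overlap in 13 of 16, all of them lower in aged pools, with a median log2 fold change of -0.77. Mcm6, a subunit of the helicase ring, was counted at 179 and 130 CPM in young A and B and at 114 and 70.6 CPM in aged A and B. Mcm7, another subunit, was counted at 136 and 141 CPM in young and at 79.4 and 74.5 CPM in aged pools. Mcm5, the member with the lowest adjusted p (0.069), lay at 84.6 and 72.5 CPM in young and 48.5 and 38.8 CPM in aged pools. Its log2 fold change of -0.90 ± 0.16 (SE) did not pass the test, nor did that of Mcm7 (-0.90 ± 0.16, adjusted p = 0.077) or Mcm6 (-0.82 ± 0.17, adjusted p = 0.094), and the differences between the subunits were not tested. Mcm4, by contrast, was at 44.3 and 21.5 CPM in young against 41.0 and 12.1 CPM in aged pools, and its ages overlapped. Mcm2 (93.1 and 46.7 against 60.0 and 28.4 CPM) also overlapped, since both subunits were counted more at facility A, though it was lower with age within each facility. Orc1, the largest subunit of the origin recognition complex, had the largest difference of the group at the lowest depth, 228 UMIs over all pools (3.73 and 1.77 against 1.73 and 0.81 CPM, log2 fold change -1.17 ± 0.35, adjusted p = 0.203). Mcm10, which helps to start the helicase, was at 9.38 and 6.77 CPM in young and 4.18 and 4.57 CPM in aged pools. The loader Cdt1 lay at 41.8 and 41.6 against 23.2 and 24.6 CPM, with the limit that an overlapping gene on the same strand, Gm20388, may share its reads. Of the 4 GINS subunits, Gins2 was lowest against young (log2 fold change -0.82) and Gins3 crossed between facilities (8.18 and 9.88 against 8.95 and 6.85 CPM).

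In the synthesis group the aged pools lay under the young pools without overlap in 10 of 11 members, and the median was -0.65. Rfc2, a subunit of the clamp loader, was counted at 250.2 and 253 CPM in young against 156 and 169 CPM in aged pools. Rpa2, part of the protein that coats single-stranded DNA, was at 116 and 117 against 71.1 and 83.8 CPM. For both genes the young pools were nearly equal and stood apart from both aged pools. Dscc1, part of an alternative clamp loader that acts in sister chromatid cohesion, had the largest fold change of all 44 members (17.7 and 16.6 against 6.30 and 9.28 CPM, log2 fold change -1.21 ± 0.25, adjusted p = 0.102). Lig1, the ligase that joins Okazaki fragments, was at 94.2 and 96.2 against 48.2 and 54.6 CPM (-0.94 ± 0.17, adjusted p = 0.077). Pcna, the sliding clamp, was the exception of the group, at 71.7 and 102 CPM in young A and B and 119 and 50.3 CPM in aged A and B. It was thus higher with age at facility A and lower at facility B, and its log2 fold change of -0.20 ± 0.40 turned to 0.21 without young B or without aged B.

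All 6 genes of nucleotide supply had an unadjusted p under 0.05, and 5 were lower in both aged pools without overlap. Dut, which keeps uracil out of DNA by breaking down dUTP and was the member with the most UMIs (23735), lay at 284 and 239 CPM in young and 161 and 184 CPM in aged pools. Tyms, which makes thymidylate, was at 97.5 and 101 against 63.5 and 73.5 CPM. Ung, the glycosylase that removes uracil from DNA, was at 51.5 and 52.4 against 26.2 and 29.7 CPM, the largest difference of the group (-0.95 ± 0.17, adjusted p = 0.075). The ages overlapped only for Rrm1, a subunit of ribonucleotide reductase, which stood higher at facility A at both ages.

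The 5 genes of fork protection had the lowest median of the 6 roles (-0.83). Tipin and Timeless, partners in the complex that travels with the fork, were lower with age: Tipin lay at 128 and 135 against 82.9 and 80.6 CPM. Timeless lay at 26.8 and 18.8 against 11.3 and 11.7 CPM (-1.02 ± 0.23, adjusted p = 0.123). Chek1, the checkpoint kinase that answers stalled forks, was at 13.9 and 12.9 against 8.32 and 6.04 CPM (-0.97 ± 0.19, adjusted p = 0.085). Among the G1/S regulators no gene separated the ages across facilities. E2f1 and Ccne2 were counted more at facility A at both ages, and the difference of Ccne1 with age had opposite signs at the facilities (log2 -0.56 at A and 0.61 at B). E2f1, the transcription factor that activates many S-phase genes, was at 35.4 and 5.61 CPM in young A and B and 17.0 and 3.55 CPM in aged A and B, lower with age within each facility. With facility in the fit its log2 fold change was -0.93 ± 0.22 (adjusted p = 0.127), and without young A, when facility cannot be fitted, it was 0.57. Cyclin E2 (Ccne2) was at 10.2 and 3.84 against 7.12 and 2.34 CPM, and Cyclin E1 (Ccne1) at 6.28 and 1.34 against 3.94 and 2.58 CPM with a log2 fold change of -0.01 ± 0.49. In the chromatin group all 3 genes were lower in both aged pools: Slbp, which binds the end of histone mRNA, was at 173 and 179 against 140 and 124 CPM. Hells, a chromatin remodeller, lay at 42.3 and 44.3 against 26.8 and 27.1 CPM. Uhrf1, which brings DNA methylation to new strands, lay at 37.5 and 31.8 against 25.4 and 17.0 CPM.

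The genes around them followed the same order in part. Of 30 other replication genes that were not on the member list, 27 had a log2 fold change below 0 and 14 an unadjusted p under 0.05, with none called by edgeR and a median of -0.43. Gmnn, the inhibitor of Cdt1, lay at 85.5 and 86.3 against 47.2 and 54.3 CPM. All 12 mitosis genes were below 0 (10 with an unadjusted p under 0.05, none called, median -0.79), as were 9 of 10 genes of S-phase chromatin assembly (5, none called, -0.44) and 11 of 12 other genes of nucleotide synthesis (3, none called, -0.28). E2F and Rb regulators were mixed, with 10 of 15 below 0 and a median of -0.19 (4 with an unadjusted p under 0.05, none called). CDK inhibitors and quiescence genes stood on the other side, with 7 of 8 above 0 and a median of 0.74 (4, none called): Btg2, an antiproliferative gene, was at 51.6 and 12.9 against 132 and 24.8 CPM.

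Markers of other cell states moved with age beside the members, and their part in the difference was not tested. The 5 HSC genes (Procr, Mecom, Hlf, Mllt3 and Fgd5) were all above 0 with a median of 0.82 (none called, 3 with an unadjusted p under 0.05), and Cd34 was called lower (-1.67, adjusted p = 0.035). Medians were -0.78 for 5 neutrophil genes, -1.27 for 5 mast cell and basophil genes, -0.52 for 5 erythroid genes, 0.48 for 5 megakaryocyte genes and -1.27 for 5 lymphoid genes, of which Flt3 and Dntt were called lower and Cd79a higher. These 4 calls rest on the facility block, since without it edgeR called 0 of the 13555 genes, and without aged B it also called 0.

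To separate how many cells expressed the genes from how much each cell held, every cell was thinned at random to 3000 UMIs, and 230 shallower cells of 14915 were left out (0 and 50 in young, 176 and 4 in aged A and B). A cell was called high in Mcm2-7 if at least 3 of these 6 genes were seen in it. The share of such cells was 18.2% in young A (95% exact interval 17.1 to 19.2%) and 14.1% in young B (12.7 to 15.6%). In aged A it was 9.39% and in aged B 5.93%. Both aged shares lay below both young shares, with differences (aged minus young) of -8.76 percentage points at facility A and -8.16 at facility B. The mean difference of -8.46 points was -13.5 when at least 2 genes were asked for, -3.31 with at least 4 and -4.63 with cells thinned to 2000 UMIs. Cells with none of the 6 genes made up 34.5% and 43.6% of young and 44.1% and 59.5% of aged pools. The class is a range of a count and not a cell type: 10.2%, 9.02%, 5.17% and 3.76% of cells held exactly 3 of the genes, and 17.6%, 13.4%, 12.7% and 8.19% exactly 2.

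The other 38 members were not used to pick these cells, and cells high in Mcm2-7 held many of them. They carried a mean of 11.8 and 12.3 UMIs of the 38 genes per 3000 in young A and B and 11.9 and 13.6 in aged A and B. Cells not high in Mcm2-7 carried 4.14 and 3.91 in young and 3.19 and 3.09 in aged pools, and cells with none of the 6 genes carried 2.93, 2.65, 2.53 and 2.23. In cells high in Mcm2-7 each aged pool was thus at or above the young pool of its facility, whereas in the remaining cells both aged pools lay below both young pools. Over all cells the mean was 5.53 and 5.10 against 4.0 and 3.71. How much of that difference comes from the lower share of cells high in Mcm2-7 depends on where the class is drawn and is not given. A median of 4 and 3 of the 44 genes was seen per young cell and 3 and 2 per aged cell. Of the 38 genes alone the median was 3 and 3 per young cell and 2 and 2 per aged cell. In cells high in Mcm2-7 it was 8 and 9 of the 38 in young and 9 and 10 in aged pools. Cells in which no member was seen made up 2.74% and 4.88% of young and 3.74% and 8.92% of aged cells.

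**Figure D2:**
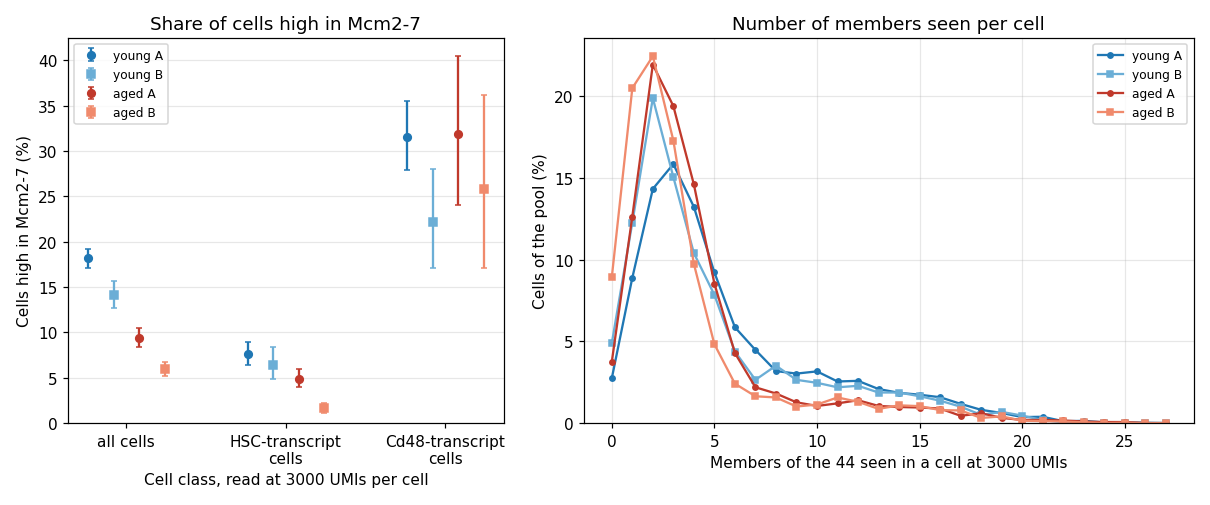
Left, share of cells high in Mcm2-7 (%) in each pool for all cells and for the HSC-transcript and Cd48-transcript cells described below, with exact 95% binomial intervals: over all cells the aged shares of 9.39% and 5.93% lie below the young shares of 18.2% and 14.1%. Right, share of each pool's cells (%) by the number of the 44 members seen at 3000 UMIs, 1 line per pool.

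Shares of cells are given for Lig1 and Ung as examples, and for Pcna and Gins3, whose ages overlapped. Lig1 was seen in 16.5% and 16.7% of thinned young cells and 9.36% and 10.3% of aged cells, and in 29.5%, 28.8%, 17.2% and 20.4% before thinning. Within cells high in Mcm2-7 it was seen in 39.2% and 46.0% of young and 35.5% and 49.6% of aged cells, and within cells with none of the 6 Mcm genes in 4.45 to 7.37%. Ung was seen in 9.67% and 8.89% of young and 5.62% and 5.86% of aged cells, with 28.0 to 36.6% in cells high in Mcm2-7 and 1.5 to 2.51% in cells with none. Pcna was seen in 15.8% and 19.2% of young and 24.2% and 11.3% of aged cells, and Gins3 in 1.77% and 2.14% against 2.82% and 1.98%. No cell type in the sort is known to lack these genes, so cells without Mcm transcripts stand as the low reference here.

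Age was then tested within the classes. These were cut by the same count of Mcm2-7 genes at both ages, and all 38 other members follow that cut, as given below. Near-equal levels of the 38 at both ages in cells high in Mcm2-7 may thus follow in part from the cut. Its part was not tested. Among cells high in Mcm2-7, none of the 38 other members was called by edgeR (0.487% of 10259 genes) or by DESeq2 (0.239% of genes), and none had an unadjusted p under 0.05 (6.63% of all genes). Their median log2 fold change was -0.08, with 25 below 0 (48.7% of all genes) and 13 above, none was lower in both aged pools without overlap (8.52% of all genes), and the direction differed between the facilities in 25 of 38. Lig1 was at 204 and 240.5 CPM in young and 174 and 251 CPM in aged pools, so that the aged pools enclosed the young ones. Ung behaved alike, at 133 and 152 against 114 and 157 CPM. Rrm2, the regulated subunit of ribonucleotide reductase, was above young in both aged pools (113 and 105 against 141 and 133 CPM, log2 fold change 0.26 ± 0.19). The intervals were wide, with median bounds of -0.59 and 0.41 over the 38 genes. The median was 0.16 without aged A, 0.05 without young B, -0.20 without young A and -0.36 without aged B.

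Among the remaining cells, 37 of 38 members had a log2 fold change below 0, with a median of -0.55, where 48.5% of all genes were below 0, and in 31 the aged pools lay under the young ones without overlap (13.5% of 13362 genes). None was called by edgeR (1.23% of genes) or DESeq2 (2.43%), and 22 had an unadjusted p under 0.05 (15.3% of genes). The median was -0.60, -0.44, -0.37 and -0.75 without young A, young B, aged A and aged B. Without facility in the fit the 22 became 3 of 38, a share like that of all genes (1071 of 13362). Orc1 (-1.46), Timeless (-0.97), Dscc1 (-0.97), Chek1 (-0.94) and Lig1 (-0.84) had the largest differences. These cells include those with 1 or 2 of the Mcm genes, so the class is not free of cycling cells.

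**Figure D3:**
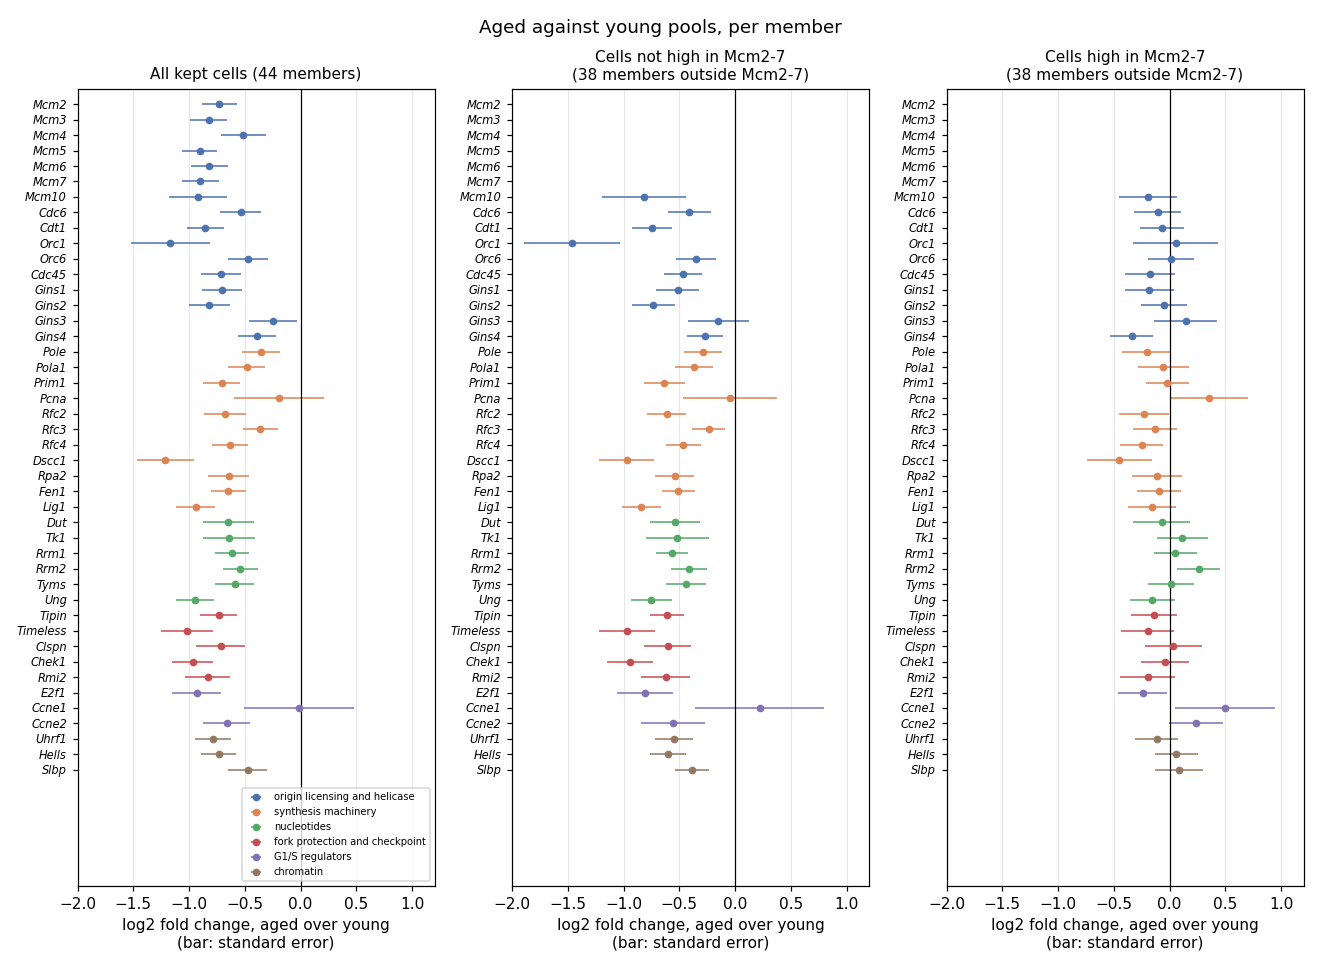
Log2 fold change of each member with age (aged over young, x axis) in all cells, in cells not high in Mcm2-7 and in cells high in Mcm2-7, coloured by role. Points are edgeR estimates and bars standard errors: in all cells 44 of 44 points lie left of 0, whereas in cells high in Mcm2-7 they lie around 0 with a median of -0.08. The members follow the cut by Mcm2-7, and the part of that cut was not tested.

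How tightly the members kept together was read in 2 comparisons within pools that did not involve age. Against the other cells of the same pool, cells high in Mcm2-7 had all 38 other members called higher by edgeR, where 19.6% of 12117 genes were called higher and 40.9% in either direction. The median log2 fold change was 1.92, against -0.05 for all genes. Ccne2 had the largest, at 27.4, 10.7, 35.3 and 12.6 CPM in young A, young B, aged A and aged B against 4.73, 2.28, 3.41 and 1.55 CPM in other cells (2.82 ± 0.17). Ung followed, at 133, 152, 114 and 157 against 25.7, 29.8, 14.5 and 19.9 CPM (2.65 ± 0.10), then Orc1, Dscc1 and Uhrf1 at 2.47, 2.47 and 2.37. At the other end stood Pole, the catalytic subunit of DNA polymerase epsilon, at 24.0, 32.5, 22.9 and 28.2 against 19.3, 17.8, 16.7 and 14.7 CPM (0.62 ± 0.10, adjusted p = 0.00032), and Gins4 (0.70 ± 0.06). These genes are thus also counted in cells with few Mcm transcripts. Cells high in Mcm2-7 were deeper before thinning, with a median of 7957.5 to 9610 UMIs against 5693 to 6576.

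Of the other lists, 26 of 30 other replication genes were called higher in cells high in Mcm2-7 (median 1.07, with Gmnn at 1.86), all 10 genes of chromatin assembly (1.37), 11 of 12 other genes of nucleotide synthesis (0.89) and 10 of 15 E2F and Rb regulators (0.47). All 5 HSC genes were called lower (median -1.01), as were 6 of 8 CDK inhibitors and quiescence genes (-0.40) and 6 of 12 mitosis genes (-0.49). Among lineage lists, 4 of 5 erythroid, 4 of 5 neutrophil and 4 of 5 megakaryocyte genes were called higher, and of 5 mast cell and basophil genes none was called by edgeR and 3 had an unadjusted p under 0.05.

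Cells with mitosis genes were compared with cells high in Mcm2-7 that lacked them to see which members differ between the stages of the cycle that these genes are known for. Cells with at least 3 of 12 mitosis genes made up 9.29%, 6.61%, 4.09% and 5.59% of young A, young B, aged A and aged B, and 145 of 14685 cells that were also high in Mcm2-7 were counted with the mitosis-gene cells. Of 38 members, 27 were called lower in mitosis-gene cells (15.5% of 9884 genes) and 2 higher (14.7%), with 30.2% of genes called in either direction. The reference cells were picked by Mcm2-7, and cells picked in this way were high in all 38 members, as given above. Lower values in mitosis-gene cells may thus follow in part from that choice, which was not tested. Ung fell most, at 11, 9.64, 12.2 and 5.64 CPM in mitosis-gene cells against 145, 159, 125 and 173 CPM in cells high in Mcm2-7 without mitosis genes (-4.02 ± 0.13, adjusted p = 6.9e-18). E2f1 fell by 2.01 on the log2 scale, Hells by 1.70, Ccne2 by 1.61 and Cdt1 by 1.42. In cells with mitosis genes alone Ung averaged 6.4 CPM, under the 24.4 CPM of cells in neither class, whereas Rrm2 averaged 89.3 CPM in the former and 18.4 CPM in the latter. Tk1, the thymidine kinase, and Rrm1 were the 2 members called higher in mitosis-gene cells: Tk1 was at 150.1, 153, 162 and 201 against 110.2, 132, 102 and 182 CPM (0.33 ± 0.07, adjusted p = 0.0012). Rrm1 had a log2 fold change of 0.42 ± 0.08 (adjusted p = 0.00029). The 9 members not called were Mcm10, Cdc45, Gins3, Gins4, Pola1, Fen1, Rrm2, Tyms and Clspn.

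The 145 cells with both sets of genes had the highest mean level of several members, of which 3 genes of nucleotide supply are given. Tk1 averaged 295 CPM in them over the 4 pools, against 132 CPM in cells high in Mcm2-7 alone and 145 CPM in mitosis-gene cells alone. Rrm2 averaged 288 against 106 and 89.3 CPM, and Tyms 377 against 203 and 182 CPM. Ung differed, with 27.4 CPM in the cells with both sets against 151 CPM in those high in Mcm2-7 alone. These means rest on 76, 16, 30 and 23 cells per pool, were read after their values were seen and were not tested.

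**Figure D4:**
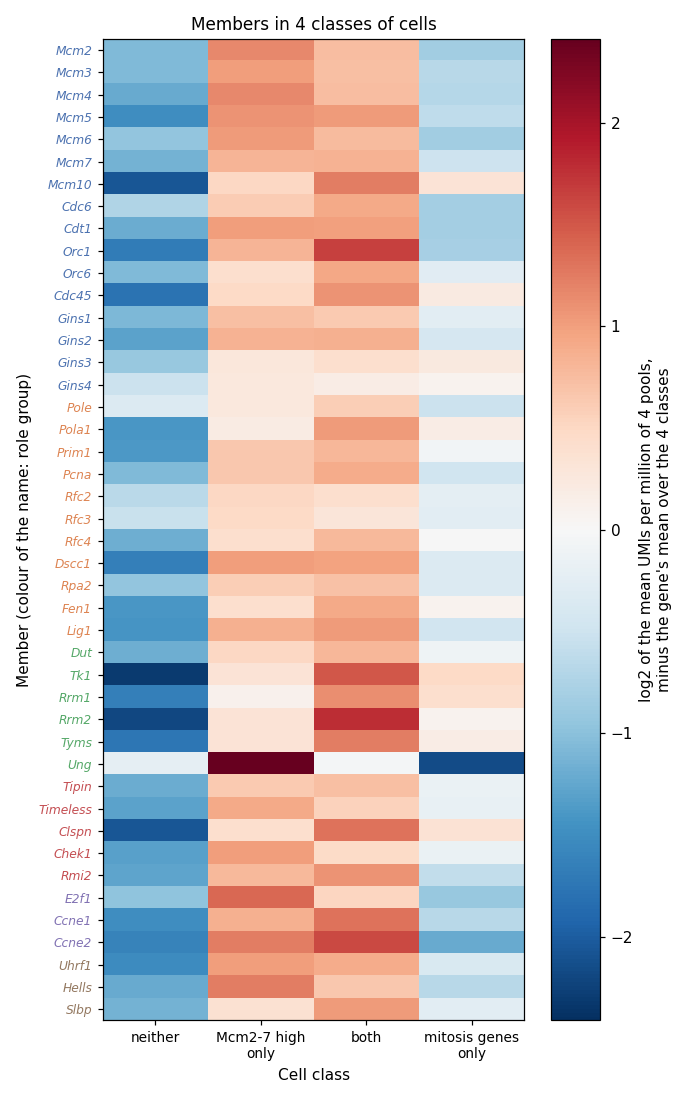
Heat map of the 44 members (rows, names coloured by role) in cells with neither set of genes, high in Mcm2-7 only, with both sets and with mitosis genes only (columns). Colour is the log2 mean CPM of the 4 pools less the gene's mean over the 4 classes: Ung goes from the darkest red in the second class (151 CPM) to dark blue in the last (6.4 CPM), whereas Tk1, Rrm2 and Tyms are reddest in the cells with both sets.

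Stem and progenitor cells were next taken apart by transcript. HSC-transcript cells held at least 2 of Procr, Mecom, Hlf, Mllt3 and Fgd5 and no Cd48 at 3000 UMIs, and Cd48-transcript cells held Cd48, which marks progenitors, and fewer than 2 of the 5 genes. HSC-transcript cells made up 33.9% and 35.4% of young and 59.7% and 52.3% of aged cells, whereas Cd48-transcript cells made up 11.4% and 10.9% of young and 4.19% and 2.14% of aged cells (589, 239, 132 and 89 cells). Of HSC-transcript cells, 7.61% and 6.44% were high in Mcm2-7 in young and 4.89% and 1.61% in aged pools. Of Cd48-transcript cells, 31.6% and 22.2% were high in young and 31.8% and 25.8% in aged pools. The aged shares were thus lower in the first class and enclosed by or above the young ones in the second.

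The shares were also read along the number of HSC genes seen in a cell. In cells with none of the 5 genes, 31.7% and 23.8% were high in Mcm2-7 in young and 25.2% and 16.9% in aged pools. With 1 gene the shares were 16.7% and 14% against 11.7% and 7.22%, with 2 genes 9.08% and 8.10% against 7.03% and 2.17%, and with 3 genes 5.63% and 4.37% against 3.04% and 0.842%. Shares were lower with each further HSC gene, from none to 3, in every pool. At each of these numbers the aged share was below the young one of the same facility, though in cells with none aged A lay above young B. In Cd48-transcript cells, by contrast, the aged share was not below the young one at either facility. These groups can share cells, the aged Cd48-transcript cells were few, as counted above, and the difference between the groups was not tested. Cells with none of the 5 genes made up 30.8% and 27.9% of young and 13.3% and 17.1% of aged cells.

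Within HSC-transcript cells, 40 of the 43 members tested had a log2 fold change below 0 with age (47% of all genes; Orc1 had too few counts), with a median of -0.56 against 0.02 for all genes, and in 30 the aged pools lay under the young ones without overlap (13.3% of 12351 genes). None was called by edgeR (2.85% of genes) or DESeq2 (1.24%), and 22 had an unadjusted p under 0.05 (13.4%). The median of these members was -0.64, -0.50, -0.66 and -0.46 without young A, young B, aged A and aged B. Without facility in the fit the 22 became 11, against 764 of 12351 genes. Mcm5 came nearest, at 41.7 and 35.3 CPM in young against 26.0 and 15.2 CPM in aged pools (-0.96 ± 0.20, adjusted p = 0.051), then Ung at 26.8 and 25.9 against 15.1 and 12.4 CPM (-0.96 ± 0.20, adjusted p = 0.056). Chek1 had the largest difference, at 8.40 and 8.63 against 4.58 and 2.60 CPM (-1.29 ± 0.32, adjusted p = 0.093). Without a filter on low counts, 6 members were called lower (Mcm5, Mcm7, Prim1, Lig1, Ung and Chek1), against 3.62% of all genes. In the same cells 5 of 12 mitosis genes and Top2a were called lower, and Btg2 and Cdkn2c higher. These calls too rest on the facility block and on both aged pools, since edgeR called 0 of all genes without the block, without aged A or without aged B.

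Within Cd48-transcript cells, 29 of 43 members had a log2 fold change above 0 and 14 below (47.7% of all genes), with a median of 0.13. None was called by edgeR (0.0788% of 8879 genes) or DESeq2 (0.0718%), and 1 had an unadjusted p under 0.05 (4.94% of genes): Rrm2, at 94.0 and 74.2 CPM in young against 153 and 112 CPM in aged pools (0.66 ± 0.18, adjusted p = 0.733). With 132 and 89 aged cells the intervals were wide, with median bounds of -0.43 and 0.72.

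The difference between the classes was then tested itself, as a class by age term with pool in the fit. Both classes were picked by transcripts, and their share of cells differed with age, higher for HSC-transcript and lower for Cd48-transcript cells. The same cut may therefore take different cells at each age, and its part in the calls was not tested. It was below 0 for 42 of 44 members (48.2% of all genes), with a median of -0.62, and 16 were called lower by edgeR, where 1.64% of 11906 genes were called lower and 2.65% in either direction. A value below 0 says that the log2 difference with age was lower in HSC-transcript cells than in Cd48-transcript cells. The called members came from 5 of the 6 roles: Mcm3, Mcm5, Mcm6, Mcm7 and Cdt1 of licensing, Prim1, Rpa2, Fen1 and Lig1 of synthesis, Tyms and Ung of nucleotide supply, Tipin and Chek1 of fork protection, and Uhrf1, Hells and Slbp of chromatin. Mcm5 had the lowest adjusted p (-1.29 ± 0.17, adjusted p = 2.8e-05): it was at 130.3 and 97.5 CPM in young and 161 and 132 CPM in aged Cd48-transcript cells, opposite to the order in HSC-transcript cells given above. Ung followed (-1.21 ± 0.19, adjusted p = 0.0004), at 73.0 and 71.5 against 81.3 and 91.1 CPM in Cd48-transcript cells. Tipin was at 72.2 and 80.1 against 54.4 and 43.2 CPM in HSC-transcript cells and 174 and 175 against 198 and 221 CPM in Cd48-transcript cells (-0.92 ± 0.16, adjusted p = 0.00087). Hells was at 21.3 and 21.4 against 13.7 and 13.9 CPM in the first class and 61.9 and 68.4 against 89.4 and 86.3 CPM in the second (-1.08 ± 0.20, adjusted p = 0.0013). Within Cd48-transcript cells alone, none of these 4 genes was called with age (edgeR adjusted p = 0.92 to 0.93). Lig1 was at 41.9 and 46.6 against 28.8 and 22.9 CPM in HSC-transcript cells and 135 and 133 against 137 and 149 CPM in Cd48-transcript cells (-0.87 ± 0.16, adjusted p = 0.0022). Chek1 had the largest value (-1.57 ± 0.39, adjusted p = 0.025), from 21.4 and 12.5 against 29.1 and 15.8 CPM in Cd48-transcript cells. Timeless just missed the threshold (-1.06 ± 0.30, adjusted p = 0.051).

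**Figure D5:**
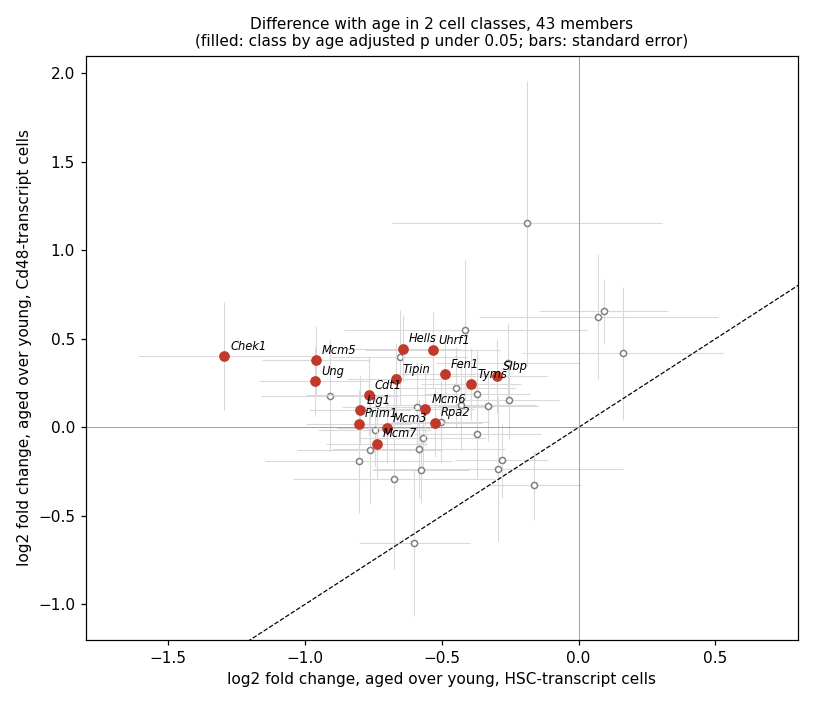
Log2 fold change with age (aged over young) in HSC-transcript cells (x axis) against Cd48-transcript cells (y axis) for the 43 members tested in both, with standard errors and a dashed line of equal values. Filled and named points are the 16 members called for the difference between the classes, all of which lie above the line.

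The values differed with the pools used, and the number of calls with the tool and the cells used. DESeq2 called 5 of the 16 (Mcm5, Lig1, Ung, Tipin and Hells, against 0.708% of all genes). The median of the 44 members was -0.65 without young A, -0.54 without young B, -0.79 without aged A and -0.45 without aged B. Lineage genes stood at other levels with age in the Cd48-transcript class, and their part in the calls was not tested. All 5 neutrophil genes were above 0 with an unadjusted p under 0.05 (none called, median 1.12), with Mpo at 1076 and 978 CPM in young and 2178 and 1908 CPM in aged pools. The 5 mast cell and basophil genes were mixed in direction, with a median of 0.85 (none called, all 5 with an unadjusted p under 0.05). Among them Gzmb went the other way (-3.88), at 8.75 and 8.94 CPM in young against 0 and 1.22 CPM in aged pools. With cells that hold lineage genes left out, an alternative chosen after the data were seen, 2 members were called (Mcm5 and Lig1, against 0.944% of all genes), with 16 and 17 aged Cd48-transcript cells left. In that fit the median of the members was -0.61, against 0.23 for all genes, and 40 of 44 were below 0. With all cells of the classes the median was -0.62, against 0.02 for all genes, and 42 were below 0. With so few aged cells left and another median over all genes, these fits cannot tell the part of lineage genes. In the same class by age fit, 7 of 12 mitosis genes, 4 of 10 genes of chromatin assembly and 2 of 30 other replication genes (Top2a and Gmnn) were called lower, and 4 of 8 CDK inhibitors and quiescence genes were called higher (Cdkn1a, Cdkn2c, Btg2 and Txnip).

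The genes whose counts followed the members most closely were ranked over single cells, as the correlation within each pool between a gene and the summed members at 3000 UMIs, averaged over the 4 pools. Cells of a pool share library and depth, and the values are descriptions with no test. Of 6010 genes seen in at least 5% of cells, the 10 highest were Stmn1 (mean r = 0.49), H2afz (0.47), Ptma (0.47), 2810417H13Rik (0.44), Tuba1b (0.44), Hmgb2 (0.42), Ppia (0.40), Ran (0.38), Gmnn (0.37) and Spc24 (0.36). They range from a tubulin binder (Stmn1) and a histone variant (H2afz) to the replication inhibitor Gmnn. The lowest were Ifitm1 (-0.39), Malat1 and Rps14 (-0.35 each), Ftl1 (-0.31) and Ifitm3 (-0.29). Among the members, Dut, Lig1 and Tk1 followed the sum of the other members most closely (mean r = 0.44, 0.42 and 0.39) and Pole least (0.03).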

How the data were processed

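For each pool the authors deposited a 10x matrix of unnormalized UMI counts (genes by cell barcodes), made with Cell Ranger 2.2.0 on the mouse build mm10 per the labels; which gene annotation it used was not given in those sources. The deposited barcodes numbered 15566, and as in the study's methods barcodes over 2 SD away from their pool's mean log UMI count were removed, which left 14915 cells and 16399999 to 36446168 UMIs per pool. No doublet caller was run. For cell classes each cell was thinned once to 3000 UMIs (seed 20), and the full counts of the cells of a class were then summed per pool.

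Sums were tested over all genes with edgeR 4.0.16 in R 4.3.3 (quasi-likelihood F test, TMM scaling, filterByExpr, Benjamini-Hochberg adjustment, called at 0.05), with age and facility as terms, or with pool as a term for comparisons between classes. The letters A and B mark the facility, and the A minus B differences of young and aged pools correlated (r = 0.488 over 13555 genes), so the letter was used as a pairing block. DESeq2 1.42.0 was the alternative, beside other filters, other class limits, all barcodes, thinned sums and each pool left out. The count test was also run on simulated data with known fold changes, and the outcome is not given here. Shares have exact Clopper-Pearson 95% intervals, which cover counting error only. Levels were computed with Python 3.11.15, numpy 2.4.6, scipy 1.17.1 and pandas 2.3.3, and plots were drawn with matplotlib 3.10.9.

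The members, the other gene lists and the tests were chosen with earlier results of these data known. Named were all called members and, in each role, the 2 with the most UMIs and the 2 with the largest difference in all cells, and outside the members the genes that correlate most. Mcm2, Mcm4, Gins2, Gins3, Pcna, Rrm1, Rrm2 and Ccne1 were named in the age comparisons after their values were seen. Promoter windows are those of RefSeq on GRCm38.p6, and 10 members without a window were not searched.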

Additional observations from a re-analysis of the deposited data

Results flagged for a closer look

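For 16 members the difference with age itself differed between HSC-transcript and Cd48-transcript cells (class by age term, edgeR quasi-likelihood test, adjusted p under 0.05). The log2 differences, HSC-transcript less Cd48-transcript cells, were -0.67 for Mcm3, -1.29 for Mcm5, -0.64 for Mcm6, -0.63 for Mcm7 and -0.91 for Cdt1 among the licensing genes. They were -0.79 for Prim1, -0.54 for Rpa2, -0.75 for Fen1 and -0.87 for Lig1 in synthesis, -0.61 for Tyms and -1.21 for Ung in nucleotide supply, and -0.92 for Tipin and -1.57 for Chek1 in fork protection. Uhrf1, Hells and Slbp stood at -0.93, -1.08 and -0.57. The 11906 genes tested had 1.64% called in this direction, and lineage genes stood at other levels with age in the Cd48-transcript cells, as given above. Both classes were picked by transcripts and their share of cells differed with age, and the part of this choice in the calls was not tested.

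In 3 members the aged pool lay above the young one at one facility and below it at the other, and this difference was not tested. Reads per cell were higher in the aged pool at facility A and in the young pool at facility B, so their part cannot be told apart here. Pcna had a log2 difference of 0.72 at facility A and -1.01 at facility B. Gins3 had 0.12 and -0.47, and Ccne1 -0.56 and 0.61.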

How the results depend on the processing

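Without the replicate block for facility, the number of members called with age stayed at 0 in all cells, in cells high in Mcm2-7, in the other cells, in HSC-transcript cells and in Cd48-transcript cells, so the pairing changed no member call. It did change the calls over all genes, which were 275, 50, 164, 352 and 7 in these comparisons with the block and 0 in each without it. Members with an unadjusted p under 0.05 went from 37 to 17 in all cells, from 22 to 3 in cells not high in Mcm2-7 and from 22 to 11 in HSC-transcript cells. Over all genes these counts went from 2175 to 1103, from 2047 to 1071 and from 1653 to 764. In all cells DESeq2 called 7 members (2.78% of all genes), a fit without a filter on low counts 10 (4.07%) and thinned sums 1 (3.06%), against 0 (2.03%). Leaving out 1 pool, which also removes the block, left this count at 0. In HSC-transcript cells the fit without a filter called 6 (3.62% of all genes). For the class by age term DESeq2 called 5 and leaving out 1 pool gave 4 to 21, against 16. With classes read on full counts 20 were called (3.43% of all genes) and without cells that hold lineage genes 2 (0.944% of all genes), both chosen after the data were seen. The median of the members was -0.63 on full counts and -0.61 without cells that hold lineage genes, against -0.62. Over all genes the medians of these fits were 0.01, 0.23 and 0.02. The share of cells high in Mcm2-7, aged minus young, was -8.46 percentage points, -13.5 with at least 2 genes, -3.31 with at least 4 and -4.63 at 2000 UMIs. The difference of the summed members was -957.9 CPM, and -670.7 CPM in thinned cells. Causes were not tested.

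In cells high in Mcm2-7 the direction of the members was not stable: 29, 18, 14 and 29 of 38 kept their sign without young A, young B, aged A and aged B, as against 40, 43, 44 and 42 of 44 in all cells. The log2 values of the turned genes among those named are given, with the lowest and highest over the 4 fits that each leave out 1 pool. In all cells Ccne1 was 5.99e-05 with DESeq2, 0.31 in thinned sums and -0.94 (without young B) to 1.07 (without young A), and Gins3 was 0.23 in thinned sums. Ccne2 ran from -1.44 (without aged A) to 0.030 (without young A), E2f1 from -2.36 (without aged A) to 0.57 (without young A) and Mcm4 from -1.30 (without aged A) to 0.12 (without aged B, and above 0 without young A). Pcna ran from -0.70 (without aged A) to 0.21 (without young B or aged B). In cells high in Mcm2-7 Ccne1 ran from -0.11 (without young B) to 1.43 (without young A), Dscc1 from -1.22 (without aged B) to 0.26 (without aged A) and Pcna from -0.056 (without young A) to 0.78 (without young B). For mitosis-gene cells Clspn ran from -0.017 to 0.11, Tyms from -0.016 to 0.070, Gins3 from -0.066 to 0.023 and Mcm10 from -0.054 to 0.0093, while with at least 2 mitosis genes Gins3 was 0.029 and Mcm10 0.22. With 2 pools per age the depth of the rarest members (228 UMIs of Orc1) limits what single genes can show.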

Other observations

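In young A, young B and aged A the barcodes set aside for a high UMI count were rich in cells with Mcm transcripts. Of the barcodes set aside in this way, 43.4% in young A (105 of 242) and 29.0% in young B (27 of 93) were high in Mcm2-7 at 3000 UMIs. In aged A it was 23.7% (33 of 139) and in aged B 7.23% (12 of 166). The share was above that of the cells kept in each pool, though only slightly in aged B, and this was not tested. Doublets were not called, and their part in these shares was not tested. With all barcodes kept, the members summed to 3142 and 2863 CPM in young and 2140 and 1747 CPM in aged pools.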
